A study of Mus musculus with 12 samples.

Results

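The genes described here are the C/EBP transcription factor genes Cebpa, Cebpb, Cebpd and Cebpg and the acute-phase genes Saa3 and Lcn2, in B16 mouse melanoma cells with and without knockdown of syndecan-1. The 6 genes were found by matching the Ensembl identifiers of the count table to these symbols, and all 6 were among its 56093 entries. They count as chosen by their measured counts in these same 12 libraries, since they were proposed with earlier results known; the rule itself names no contrast and no threshold. The p-values below therefore describe these libraries and are not independent evidence. RNA was sequenced from B16 cells transfected with a short hairpin RNA against Sdc1, the gene of the cell-surface heparan sulfate proteoglycan syndecan-1, or against RFP as the control. Both were grown in DMEM with 10% fetal bovine serum. The 4 groups of 3 libraries were shSdc1 given IFNγ at 10 ng/ml for 24 h (shSdc1 with IFNγ), shRFP given the same IFNγ (shRFP with IFNγ), unstimulated shSdc1 and unstimulated shRFP. The labels do not state how many hairpins were used, what promoter drove them or whether replicate libraries are separate cultures. The spread behind each p-value is thus that between libraries, possibly technical only, and off-target effects of the hairpin cannot be told apart from loss of Sdc1.

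C/EBP proteins are basic leucine zipper factors that bind DNA as dimers with each other or with related factors such as ATF4. C/EBPα drives the differentiation of hepatocytes, adipocytes and myeloid cells, while C/EBPβ and C/EBPδ are induced by inflammatory cytokines and activate acute-phase genes, and C/EBPγ lacks an activation domain of its own and pairs with other members or with ATF4. Saa3 encodes a serum amyloid A made outside the liver in mice, and Lcn2 encodes lipocalin 2, a secreted protein that binds iron-carrying siderophores; both are known targets of NF-kB, IkB-zeta and C/EBP factors in inflamed cells.

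Of the 6 genes, the filter on low counts kept 3, Cebpd, Cebpg and Lcn2. Cebpa, Cebpb and Saa3 were below detection by that filter, which asks for about 10 counts in each of 3 libraries. Cebpa had 0 counts in all 12 libraries. Cebpb had 1 to 7 counts per library and Saa3 had 0 to 3. Lcn2 passed only through the 3 libraries of shSdc1 with IFNγ, so a difference between that group and the others was a condition of its being tested. The kept genes are therefore not a sample of all 6.

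The libraries held 14337771 to 21548940 counts. Sdc1 checked the labels: it averaged 25.8 ± 1.03 CPM (the level of a gene scaled to library size by TMM; mean ± SD, n = 3 here and below) in shSdc1 with IFNγ and 88.5 ± 12.4 CPM in shRFP with IFNγ, and 23.7 ± 1.78 CPM in shSdc1 and 75.4 ± 1.34 CPM in shRFP, with log2 fold changes of -1.77 ± 0.08 and -1.67 ± 0.08 (SE; the second -1.73 without shSdc1 replicate 3). The melanocyte markers Pmel, Dct, Tyr, Tyrp1, Mlana, Mitf and Sox10 were tested in all 7 cases and summed to 11750 to 18170 CPM per library. One library stood apart: in shSdc1 replicate 3 4.79% of all counts fell on a single entry, ENSMUSG00000119584, where the 11 others had 0.0842 to 0.195%. Fold changes of the tested members that use that library are given without it as well. In bulk RNA fewer cells of a type and less RNA per cell cannot be told apart.

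The promoters of Lcn2 and Saa3 are shown because these 2 genes are the acute-phase genes of the set and because, of the 5 members with an entry in the RefSeq promoter table, only these 2 held a match to the C/EBP consensus TTGCNNAA. Both windows are the 250 bases before the annotated start in GRCm38.p6, given 5′ to 3′ on the gene's strand, with the match in capitals. The Lcn2 window lies at chr2:32387740-32387989 on the minus strand and the Saa3 window at chr7:46715677-46715926 on the minus strand.
Lcn2 promoter: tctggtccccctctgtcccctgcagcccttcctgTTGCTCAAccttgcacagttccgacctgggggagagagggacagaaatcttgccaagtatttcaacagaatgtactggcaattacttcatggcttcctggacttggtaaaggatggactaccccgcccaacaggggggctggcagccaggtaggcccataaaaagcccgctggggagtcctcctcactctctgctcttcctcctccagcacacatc
Saa3 promoter: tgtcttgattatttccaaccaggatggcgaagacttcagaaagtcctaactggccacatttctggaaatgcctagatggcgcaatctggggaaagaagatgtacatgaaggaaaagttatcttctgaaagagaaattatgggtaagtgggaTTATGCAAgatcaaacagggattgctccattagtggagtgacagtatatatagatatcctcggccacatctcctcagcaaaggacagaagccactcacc
The Lcn2 match begins 216 bases before the start and reads along the gene's strand. The Saa3 match begins 99 bases before the start and reads on the opposite strand. The Saa3 window also holds the interferon-response core GAAANNGAA, 125 bases before the start, and the NF-kB core GGNNTTTCC on the opposite strand, 187 bases before it, and none of these matches overlap. Across 32851 promoter windows of 300 bases, 250 before and 50 after the start, 10.8% held TTGCNNAA on either strand, 5.82% GGNNTTTCC and 8.56% GAAANNGAA. The windows of Cebpa, Cebpb and Cebpg held no match to any of the 6 motifs searched. Of these, on both strands, TGATGNAA (C/EBP with ATF, in 3.97% of windows), TTCNNNGAA (the STAT site GAS, 8.30%) and TGANTCA (AP-1, 7.81%), had no match in the 5 windows. These are descriptions of letters in a short window and say nothing of binding.

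Cebpg was the most abundant of the 4 factor genes per length in every library, and it was lower in shSdc1 than in shRFP cells without IFNγ. C/EBPγ is the family member best known as a partner of ATF4 in the response to amino acid shortage. Cebpg stood at 40.8, 41.2 and 41.1 CPM in shSdc1, against 58.9, 60.0 and 52.9 CPM in shRFP. The 2 groups did not overlap, and the 3 shSdc1 libraries were nearly level. Its log2 fold change was -0.48 ± 0.08 (SE), with an edgeR quasi-likelihood adjusted p of 0.000101 (-0.48 and 0.000568 without shSdc1 replicate 3). With IFNγ the libraries stood at 29.5, 33.6 and 36.9 CPM in shSdc1 and at 30.6, 30.7 and 36.7 CPM in shRFP. These 2 groups overlapped throughout, and the log2 difference was 0.03 ± 0.08 with an edgeR adjusted p of 0.835. Its normal 95% interval ran from -0.14 to 0.19, so a difference as large as the one without IFNγ lay outside it.

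IFNγ itself went with less Cebpg in both kinds of cell. In shRFP the log2 fold change for IFNγ was -0.81 ± 0.08 (edgeR adjusted p = 2.17e-07), from 32.7 ± 3.48 CPM with IFNγ and 57.3 ± 3.84 CPM without, and the ranges did not overlap. In shSdc1 it was -0.30 ± 0.08 (edgeR adjusted p = 0.00803; -0.31 and 0.0201 without shSdc1 replicate 3), with 33.3 ± 3.70 CPM with IFNγ and 41.0 ± 0.217 CPM without. That smaller fall did not pass when replicate 1 of shSdc1 with IFNγ was left out (-0.22, edgeR adjusted p = 0.0587). The knockdown effect with IFNγ minus the effect without it was 0.51 ± 0.11 on the log2 scale (edgeR adjusted p = 0.00918; 0.50 and 0.0208 without shSdc1 replicate 3). In order, Cebpg was highest in shRFP, then shSdc1, then the 2 IFNγ groups, which did not differ beyond their spread.

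Cebpd, the family member that inflammatory cytokines induce quickly, had its highest level in shSdc1 cells given IFNγ. Its libraries stood at 7.999, 9.10 and 8.40 CPM in shSdc1 with IFNγ, against 1.32, 1.93 and 1.69 CPM in shRFP with IFNγ. Every knockdown library lay well above every control library. The log2 fold change was 2.36 ± 0.19, a 5.12-fold difference, with an edgeR adjusted p of 1.32e-08. Without IFNγ Cebpd stood at 3.04, 3.63 and 4.09 CPM in shSdc1, against 2.96, 2.37 and 2.00 CPM in shRFP. The 2 groups touched closely without overlapping. The log2 fold change was 0.52 ± 0.19 with an edgeR adjusted p of 0.0451 (0.42 and 0.175 without shSdc1 replicate 3).

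**Figure D1:**
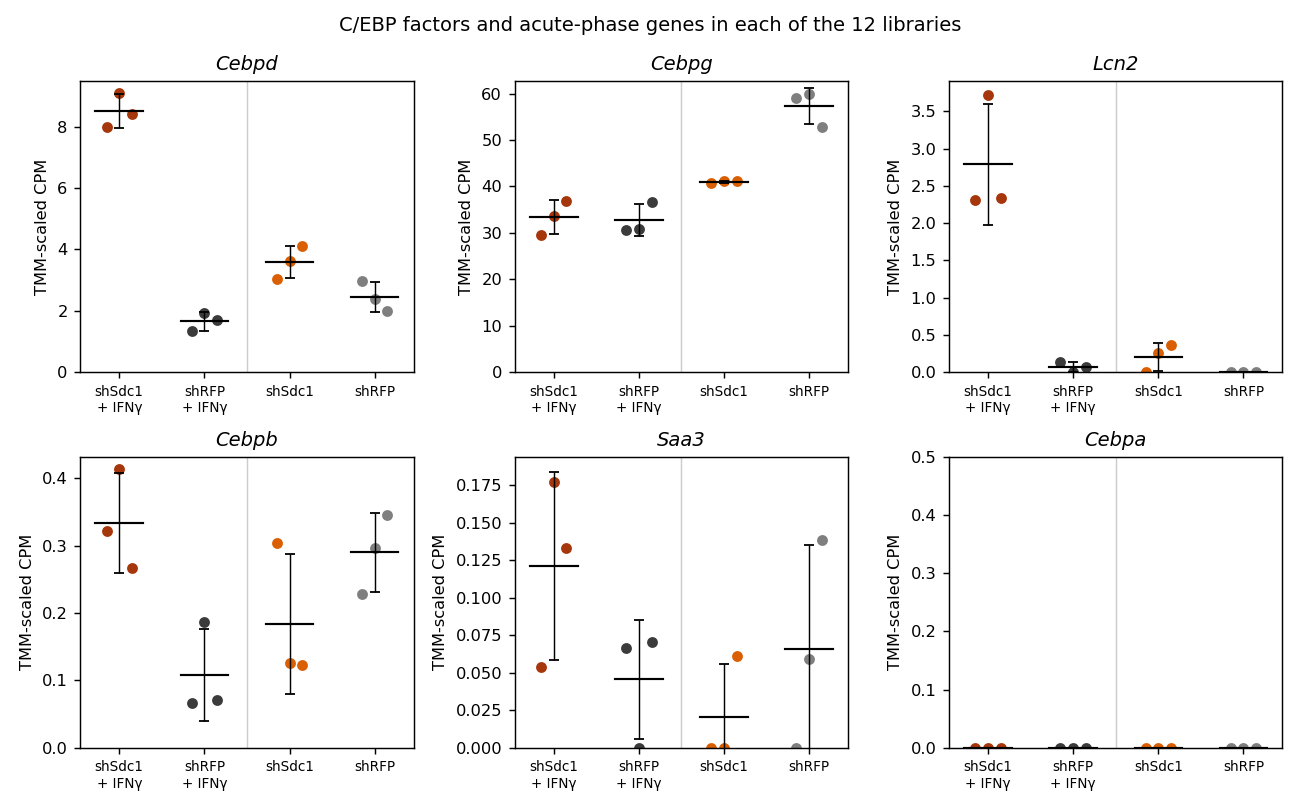
TMM-scaled CPM of the 6 genes (1 panel each, vertical axes from 0 on different scales) in the 12 libraries; points are libraries, horizontal lines the mean and bars the SD of 3 libraries. Cebpd lies at 7.999 to 9.10 CPM and Lcn2 at 2.31 to 3.72 CPM in shSdc1 with IFNγ, above every other library, while Cebpg is highest in shRFP and Cebpa has no counts.

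IFNγ moved Cebpd in opposite directions in the 2 kinds of cell. In shSdc1 it averaged 8.50 ± 0.555 CPM with IFNγ and 3.59 ± 0.529 CPM without (log2 fold change 1.24 ± 0.16, edgeR adjusted p = 9.48e-06; 1.34 and 2.38e-05 without shSdc1 replicate 3). In shRFP it averaged 1.65 ± 0.306 CPM with IFNγ and 2.45 ± 0.484 CPM without (-0.59 ± 0.22, edgeR adjusted p = 0.0466). The knockdown effect with IFNγ minus the effect without it was 1.83 ± 0.27 on the log2 scale (edgeR adjusted p = 0.000433; 1.93 and 0.000589 without shSdc1 replicate 3), and it passed in all 19 alternative settings. From highest to lowest, Cebpd ran from shSdc1 with IFNγ through shSdc1 and shRFP to shRFP with IFNγ, and no 2 neighbours in that order overlapped.

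The 2 small Cebpd differences were near the threshold. The knockdown difference without IFNγ passed in 9 of 20 alternative settings, with edgeR or DESeq2 adjusted p-values of 0.0239 to 0.175. Leaving out shRFP replicate 2 (0.115) or 3 (0.149), shSdc1 replicate 2 (0.0979) or 3 (0.175), or replicate 1, 2 or 3 of shSdc1 with IFNγ (0.0550, 0.0544 and 0.0561) ended that call. The IFNγ difference in shRFP passed in 8 of 20, with adjusted p-values of 0.0273 to 0.237. It was lost without shRFP replicate 1 (0.237) or 2 (0.0747), shRFP with IFNγ replicate 1 (0.170) or 3 (0.0766), shSdc1 replicate 2 (0.0567), or replicate 1, 2 or 3 of shSdc1 with IFNγ (0.0563, 0.0559 and 0.0578). The direction was the same in every setting for both.

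Cebpd shares 562 exon bases with Spidr, a DNA repair scaffold gene on the opposite strand, in the GENCODE M21 annotation, and the labels do not say whether counting used the strand. Spidr averaged 42.4 ± 2.70 CPM in shSdc1 with IFNγ, 42.7 ± 2.52 CPM in shRFP with IFNγ, 38.9 ± 0.444 CPM in shSdc1 and 39.8 ± 1.04 CPM in shRFP. It passed in none of the 5 comparisons by edgeR. Cebpg shares 73 bases with Gm44836 on its own strand and 4 with Gm45095 on the other. Gm44836 had 16 to 23 counts per group and Gm45095 had none.

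Cebpb, the other cytokine-induced member, was counted in all 12 libraries at a level too low to test. It had 6, 7 and 4 counts in shSdc1 with IFNγ, against 1, 3 and 1 counts in shRFP with IFNγ. The ratio of the summed counts, scaled for library size, was 3.05 with an exact 95% interval of 1.08 to 10.6. The interval took in 1 without replicate 2 of shSdc1 with IFNγ (0.84 to 10.1) or without replicate 1 or 3 of shRFP with IFNγ (0.829 to 10.4 and 0.855 to 10.7), and the ratio was 4.93 without replicate 2 of shRFP with IFNγ. Without IFNγ it had 5, 2 and 2 counts in shSdc1, against 5, 5 and 5 counts in shRFP, a ratio of 0.655 (0.253 to 1.6), or 0.766 without shSdc1 replicate 3. For IFNγ the ratio was 1.82 (0.769 to 4.64) in shSdc1, or 1.56 without shSdc1 replicate 3, and 0.391 (0.111 to 1.13) in shRFP. Such intervals allow for counting error alone, as reads copied by PCR are not separate molecules. The groups ranked shSdc1 with IFNγ, shRFP, shSdc1 and shRFP with IFNγ, and each neighbour overlapped the next. Cebpb shares 312 exon bases with Tmem189 on the opposite strand, and Tmem189 was lower in shSdc1 than in shRFP both with IFNγ (-0.74 ± 0.06) and without (-0.56 ± 0.05); its part in the Cebpb counts was not tested.

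Cebpa, the differentiation factor of liver, fat and myeloid cells, had no counts in any library. A group with 0 counts allows at most 3 counts over the group, which is 0.0563 to 0.0661 CPM depending on the group. Cebpe, the granulocyte member, had 0 to 3 counts per library. Cebpz, a CCAAT-binding factor outside the leucine zipper family, and Ddit3, which encodes CHOP, the stress-induced dominant-negative partner of C/EBP proteins, were both well counted. Cebpz averaged 91.9 ± 5.64 CPM in shSdc1 with IFNγ and 80.6 ± 1.42 CPM in shRFP with IFNγ (log2 0.19 ± 0.05, edgeR adjusted p = 0.00606). Ddit3 moved much as Cebpg did without IFNγ, at 31.5 ± 1.73 CPM in shSdc1 and 42.2 ± 1.45 CPM in shRFP (-0.42 ± 0.07, edgeR adjusted p = 7.19e-05). With IFNγ it was slightly higher in shSdc1, at 28.1 ± 1.31 CPM against 23.9 ± 1.91 CPM in shRFP (0.23 ± 0.07, edgeR adjusted p = 0.0145). That last difference did not pass without replicate 2 of shRFP with IFNγ (0.110) or replicate 3 of shSdc1 with IFNγ (0.0612).

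**Figure D2:**
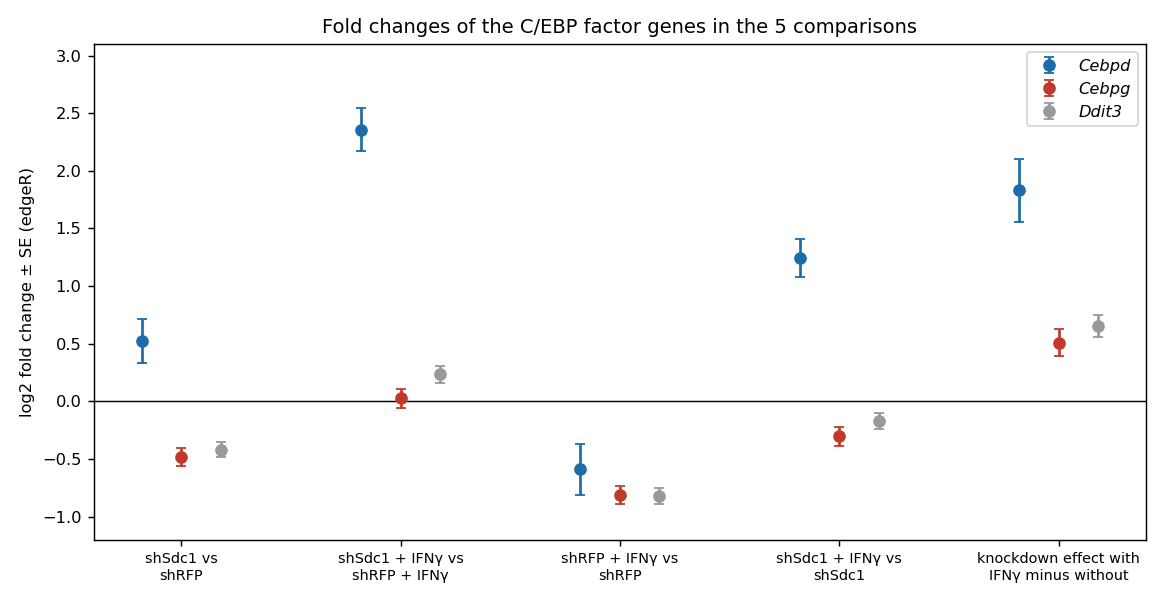
Log2 fold changes (vertical axis, points; bars are ± SE from edgeR) of Cebpd, Cebpg and Ddit3 in the 4 comparisons between groups and, at the right, for the knockdown effect with IFNγ minus that without. Cebpd reaches 2.36 for shSdc1 against shRFP with IFNγ, where Cebpg lies at 0.03, and all 3 genes lie above 0 in the difference of the effects.

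Set side by side per kilobase of exon, the factor genes had a different make-up in shSdc1 cells given IFNγ. Levels were converted to RPKM, the CPM divided by the length of all annotated exon bases in kilobases, and each gene's share of the sum over Cebpa, Cebpb, Cebpd and Cebpg was taken in each library. Cebpd held 27.0 ± 1.79% in shSdc1 with IFNγ, 6.97 ± 1.29% in shRFP with IFNγ, 11.4 ± 1.54% in shSdc1 and 5.90 ± 0.896% in shRFP. The shSdc1 with IFNγ libraries, at 24.9 to 28.1%, lay above all others, and those of shSdc1, at 9.81 to 12.9%, lay above both control groups, whose ranges overlapped. Cebpg held 70.3 ± 2.38%, 91.9 ± 2.05%, 87.1 ± 0.835% and 92.3 ± 0.527% in the same 4 groups. Cebpb held 2.65 ± 0.616% in shSdc1 with IFNγ and 1.15 to 1.77% on average elsewhere. The summed level was 8.42 ± 0.725 RPKM in shSdc1 with IFNγ, 6.33 ± 0.621 RPKM in shRFP with IFNγ, 8.38 ± 0.112 RPKM in shSdc1 and 11 ± 0.749 RPKM in shRFP. No test was run on these shares.

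**Figure D3:**
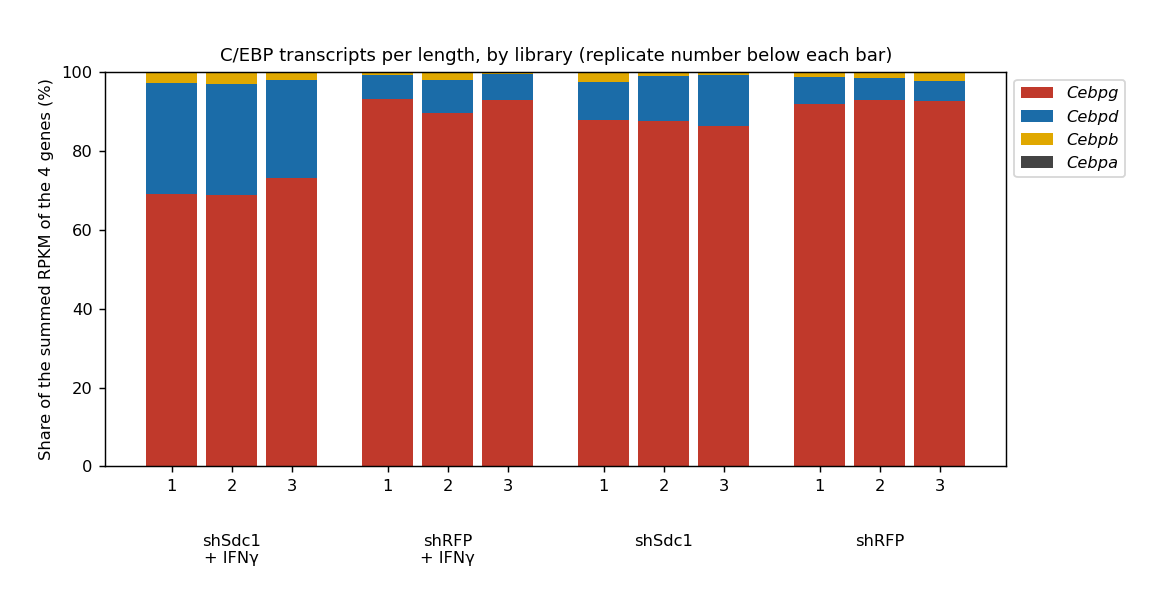
Share of each gene in the summed RPKM of Cebpa, Cebpb, Cebpd and Cebpg (vertical axis, %), 1 bar per library with its replicate number below. Cebpd takes 24.9 to 28.1% in shSdc1 with IFNγ and 5.26 to 12.9% in the other 9 libraries; Cebpa has a share of 0 everywhere.

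Lcn2, the lipocalin gene, was counted almost only in shSdc1 cells, and most of all in those given IFNγ. It had 43, 63 and 35 counts in shSdc1 with IFNγ, which is 2.31, 3.72 and 2.33 CPM, against 2, 0 and 1 counts in shRFP with IFNγ. Every knockdown library was above every control library. The ratio of the summed counts, 141 against 3 and scaled for library size, was 42.2 with an exact 95% interval of 14.1 to 207. It was 84.3 (14.9 to 3350) without replicate 1 of shRFP with IFNγ and 27.2 (9.14 to 134) without replicate 2 of that group. The fitted log2 fold change was 5.24 ± 0.64 (edgeR adjusted p = 6.25e-06). It was 6.10 and 4.66 without the same 2 libraries, and it passed in all 20 alternative settings. Lcn2 passed the filter only through shSdc1 with IFNγ, so a difference from other groups was a condition of its being tested. The adjusted p-values for that group, against shRFP with IFNγ or against shSdc1, therefore only describe it. Within shSdc1 the comparison of IFNγ with none set 141 counts against 10, a ratio of 13.6 (7.19 to 29.0), or 22.6 without shSdc1 replicate 3 and 9.02 without shSdc1 replicate 1, with a fitted value of 3.72 ± 0.51 (edgeR adjusted p = 2.66e-05; 4.41 and 5.18e-05 without shSdc1 replicate 3).

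Without IFNγ Lcn2 had 0, 4 and 6 counts in shSdc1, against 0, 0 and 0 counts in shRFP. The shSdc1 libraries therefore overlapped the control, with 1 of the 3 at 0. Against 3 counts over the control group, with the shSdc1 counts taken as exact, the level was 3.64-fold higher. This ratio fell to 2.19 without shSdc1 replicate 3 and to 2.14 without shRFP replicate 1 and was 5.49 without shSdc1 replicate 1. Counting error alone put the shSdc1 level at 0.0982 to 0.377 CPM (Poisson 95% interval). The fitted log2 value of 4.81 ± 1.57 (edgeR adjusted p = 0.0298) was 4.115 without shSdc1 replicate 3. It depends on the prior count and is no bound. Its call was lost without shSdc1 replicate 2 (edgeR adjusted p = 0.0679) or 3 (0.111) or without shRFP replicate 1, 2 or 3 (0.0853, 0.0666 and 0.0593). In shRFP cells the 3 counts with IFNγ and 0 without give no fold, and the edgeR adjusted p was 0.202. The knockdown effect with IFNγ minus that without was 0.43 on the log2 scale (edgeR adjusted p = 0.773). Without shSdc1 replicate 3 it was 1.12 (edgeR adjusted p = 0.83). This difference rests on the fitted 4.81, with 0 counts in shRFP, so neither an SE nor an interval is given for it. Whether the knockdown difference in Lcn2 itself changes with IFNγ was thus not resolved at this depth. The order was shSdc1 with IFNγ, then shSdc1, shRFP with IFNγ and shRFP, and the last 3 groups overlapped their neighbours.

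Saa3, the serum amyloid A gene of inflamed mouse tissues, was near the limit of counting. It had 1, 3 and 2 counts in shSdc1 with IFNγ, against 1, 0 and 1 counts in shRFP with IFNγ, a ratio of 2.69 with an exact 95% interval of 0.481 to 27.3. Unstimulated cells had 0, 0 and 1 counts in shSdc1 and 0, 1 and 2 counts in shRFP, which give no fold. For IFNγ in shSdc1 the ratio was 5.79 (0.703 to 266). No difference was detectable at this depth, and all 4 groups overlapped.

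The share of all genes that passed sets the scale for the members. Of the 3 tested members, Lcn2 passed the filter only through shSdc1 with IFNγ. Where that group is set against another, a difference was a condition of its being tested and it is left out. In shSdc1 with IFNγ against shRFP with IFNγ, Cebpd passed as higher and Cebpg did not pass. Of the 14089 genes tested 36.3% passed there and 18.9% were higher. Without IFNγ 3 of 3 passed, Cebpd and Lcn2 higher and Cebpg lower, where 28.6% of all genes passed. For IFNγ in shRFP 2 of 3 passed, both lower, with 31.6% of genes called and 14.4% lower. For IFNγ in shSdc1 Cebpd and Cebpg both passed, with 30.5% of genes called. In the difference of the knockdown effects Cebpd and Cebpg both passed as higher, with 9.73% of genes called, 4.58% higher and 5.15% lower. Lcn2, left out there as well because that difference uses shSdc1 with IFNγ, did not pass. With 3 genes tested, chosen with results known, these counts are a description. The comparisons share libraries, so their values are given side by side and no relation between them is computed.

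Of 36 acute-phase genes listed, which include Saa3, Lcn2 and the liver proteins of the systemic response, 29 were not kept by the filter. In all 12 libraries 11 had no count, and 15 had a highest count of 1 to 9. The rest, Lbp, Mt2 and Serpina3g, had highest counts of 20, 14 and 25. The 7 kept were Cp, C3, C4b, Lcn2, Mt1, Orm3 and Serpina3n. Lcn2, C3 and Serpina3n would not have passed the filter without shSdc1 libraries, C4b and Orm3 not without libraries given IFNγ, and Orm3 not from either kind of cell alone. A difference in Lcn2, C3 and Serpina3n was thus a condition of their being kept, and no count or median over the 7 is given. Either kind of cell alone would have kept 3 genes, Cp, C4b and Mt1. With IFNγ 2 of these were higher and 1 lower in shSdc1 than in shRFP, against 18.9% and 17.4% of all genes. Without IFNγ 2 were higher and 0 lower, against 14.0% and 14.6%.

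Ceruloplasmin, Cp, the copper-carrying ferroxidase of plasma, was higher in shSdc1 than in shRFP cells with and without IFNγ, and its call did not rest on the filter. It averaged 962.1 ± 29.5 CPM in shSdc1 with IFNγ and 208.3 ± 23.0 CPM in shRFP with IFNγ (log2 2.21 ± 0.06, edgeR adjusted p = 4.24e-15). Without IFNγ it averaged 488.6 ± 3.49 CPM in shSdc1 and 116.3 ± 5.12 CPM in shRFP (2.07 ± 0.06, edgeR adjusted p = 2.65e-14; 2.08 without shSdc1 replicate 3). IFNγ raised it in both kinds of cell, by 0.98 ± 0.06 in shSdc1 and 0.84 ± 0.06 in shRFP on the log2 scale, and the difference of the knockdown effects did not pass.

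C3, the central complement component, had most of its counts in shSdc1 cells given IFNγ, as Lcn2 did, and as for Lcn2 no other group reached the filter's level in 3 libraries, so that a difference was a condition of its being tested. It had 193, 212 and 122 counts in shSdc1 with IFNγ, against 0, 4 and 0 counts in shRFP with IFNγ (fitted log2 6.76 ± 0.54, edgeR adjusted p = 4.94e-08). All 4 control counts were in replicate 2. Without that library the level in shSdc1, its counts taken as exact, was 102-fold that of 3 counts over the other 2 control libraries. Without IFNγ it had 13, 13 and 1 counts in shSdc1 and none in the 3 shRFP libraries. C4b, a classical-pathway complement gene, followed IFNγ instead, at 132.3 ± 6.10 CPM in shSdc1 with IFNγ and 109.5 ± 5.19 CPM in shRFP with IFNγ, against 0.328 ± 0.0408 CPM in shSdc1 and 0.304 ± 0.215 CPM in shRFP. The IFNγ effect was 8.62 ± 0.13 in shSdc1 and 8.56 ± 0.13 in shRFP on the log2 scale (9.19 in shRFP without shRFP replicate 3). The metallothionein gene Mt1 fell by 0.31 ± 0.05 with IFNγ in shSdc1 and rose by 0.18 ± 0.05 in shRFP, and the difference of its knockdown effects was -0.50 ± 0.07 (edgeR adjusted p = 0.000145).

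**Figure D4:**
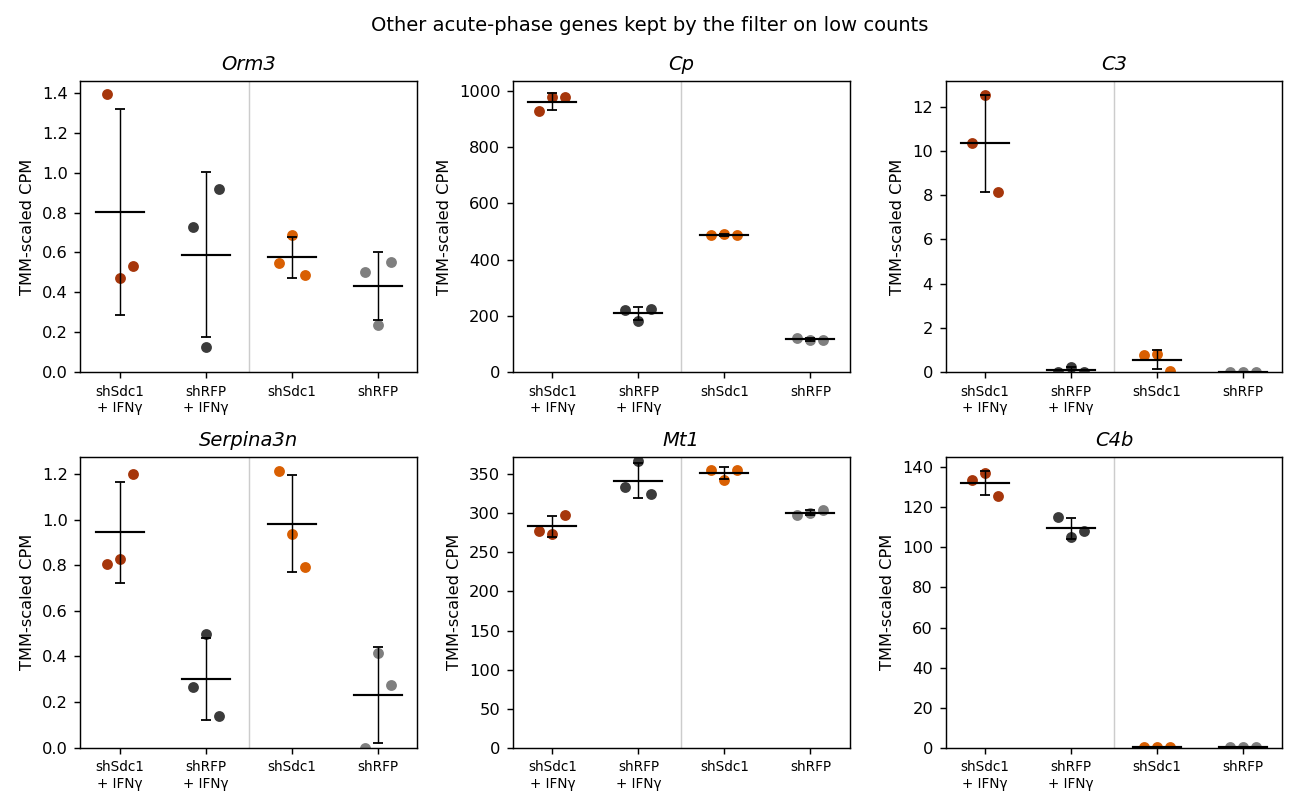
TMM-scaled CPM (vertical axes from 0, different scales) of the 6 acute-phase genes other than Lcn2 that the filter kept, in the 12 libraries; points are libraries, lines the mean and bars the SD of 3. Cp averages 962.1 CPM and C3 10.3 CPM in shSdc1 with IFNγ, C4b exceeds 1 CPM only in the groups given IFNγ, and Orm3 overlaps in all groups.

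The cytokine genes that induce this response in other cells were scarce. Il6 had at most 6 counts in a library, Il1b at most 1, and the interleukin-6 family gene Osm had none. Of 17 genes of the IL-6 and STAT3 pathway 13 were tested, and with IFNγ 7 were higher and 0 lower in shSdc1 than in shRFP, where 18.9% of all genes tested were higher and 17.4% lower. Of the 13, Lif, Clcf1 and Bcl3 would not have passed the filter without shSdc1 libraries, and of the other 10 genes 4 were higher and 0 lower (median log2 0.14). Lif, an IL-6 family cytokine, averaged 1.75 ± 0.657 CPM in shSdc1 with IFNγ and 0.158 ± 0.111 CPM in shRFP with IFNγ (log2 3.45 ± 0.48, edgeR adjusted p = 1.42e-05; 4.09 without replicate 3 of shRFP with IFNγ). In the same comparison the cytokine gene Clcf1 was higher by 3.20 ± 0.59 (4.08 without replicate 2 of shRFP with IFNγ) and Bcl3, a nuclear IkB protein gene, by 2.34 ± 0.34 on the log2 scale. Without IFNγ 2 of the other 10 were higher and 2 lower, against 14.0% and 14.6% of all genes. IFNγ went with more Stat3, the transcription factor of this pathway, at 1.52 ± 0.05 in shSdc1 and 1.69 ± 0.05 in shRFP, and with more of its feedback inhibitor Socs3, at 1.25 ± 0.12 and 1.30 ± 0.12. With IFNγ against none, 7 of these 10 passed as higher in shSdc1 and 4 in shRFP, against 17.5% and 17.2% of all genes.

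Genes of the IL-1, Toll-like receptor and IkB-zeta pathway, tested in 14 of 20 cases, were higher in shSdc1 in 8 cases with IFNγ and in 8 without, and lower in 0 of either, against 18.9% and 14.0% of all genes higher. Leaving out Il33, which would not have passed the filter without shSdc1 libraries, 7 of 13 were higher in each, with medians of 0.43 and 0.15 on the log2 scale. Without shSdc1 replicate 3 the count without IFNγ was 5 of 14. Nfkbiz encodes IkB-zeta, the cofactor known to be needed for Lcn2 induction by IL-1. It averaged 34.7 ± 5.47 CPM in shSdc1 with IFNγ and 13.8 ± 1.82 CPM in shRFP with IFNγ (1.33 ± 0.11, edgeR adjusted p = 3.31e-08), and the difference of its knockdown effects was 0.98 ± 0.17 (edgeR adjusted p = 0.00164). Tlr2, a receptor of bacterial lipoproteins that also binds serum amyloid A, averaged 8.21 ± 1.11 CPM in shSdc1 with IFNγ and 1.81 ± 0.115 CPM in shRFP with IFNγ (2.18 ± 0.21). Zc3h12a, an RNase gene that limits inflammatory transcripts, was higher in shSdc1 with IFNγ (1.37 ± 0.13) and without (0.96 ± 0.14).

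Of 13 listed partners and modifiers of C/EBP proteins 11 were tested. With IFNγ 5 were higher and 3 lower in shSdc1 than in shRFP, against 18.9% and 17.4% of all genes. Without IFNγ 2 were higher, a share near the 14.0% of all genes, and 5 lower, against 14.6%. Runx1, a partner of C/EBP factors in myeloid cells, was higher in shSdc1 with IFNγ (1.18 ± 0.10) and without (0.74 ± 0.10). Id2, a helix-loop-helix inhibitor, was lower in shSdc1 with IFNγ, at 47.7 ± 1.69 CPM against 104.6 ± 10.5 CPM in shRFP with IFNγ (-1.13 ± 0.06). Among 9 receptors and partners of Lcn2 and Saa3 proteins 5 were tested. The Lcn2 receptor gene Slc22a17 and the Lcn2-bound protease gene Mmp9 were not kept, with at most 6 and 8 counts in a library. Scarb1, a lipoprotein receptor that takes up serum amyloid A, averaged 173.2 ± 4.59 CPM in shSdc1 with IFNγ and 148.5 ± 3.56 CPM in shRFP with IFNγ (0.22 ± 0.05, edgeR adjusted p = 0.000831).

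The genes that C/EBPγ and ATF4 are known to activate together in amino acid shortage followed the same order as Cebpg in most cases. All 12 listed were tested. Without IFNγ 11 were lower in shSdc1 than in shRFP and 0 higher, with a median of -0.70, against 14.6% of all genes lower (10 without shSdc1 replicate 3). For IFNγ in shRFP 12 were lower (median -1.0), against 14.4% of all genes. For IFNγ in shSdc1 10 were lower and 0 higher (median -0.42), against 13.0% lower. With IFNγ 5 were lower and 1 higher in shSdc1 than in shRFP, with a median of -0.08, against 17.4% lower and 18.9% higher. In the difference of the knockdown effects 11 were higher and 0 lower, with a median of 0.64, against 4.58% of all genes higher and a median of 0.02 (8 without shSdc1 replicate 3, which ended the calls of Psat1, Phgdh and Shmt2).

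Chac1, an enzyme gene of glutathione breakdown, averaged 27.2 ± 2.12 CPM in shSdc1 and 61.7 ± 1.04 CPM in shRFP (-1.18 ± 0.10), and 15.5 ± 1.14 CPM in shSdc1 with IFNγ and 16.8 ± 3.87 CPM in shRFP with IFNγ. Asns, asparagine synthetase, averaged 205.6 ± 8.06 CPM in shSdc1 and 374.5 ± 11.3 CPM in shRFP (-0.87 ± 0.05, edgeR adjusted p = 8.47e-11). Atf4 itself averaged 397.5 ± 10.8 CPM in shSdc1 and 562.6 ± 12.2 CPM in shRFP (-0.50 ± 0.04), and IFNγ went with -0.52 ± 0.04 in shSdc1 and -0.85 ± 0.04 in shRFP. The cystine transporter gene Slc7a11 was the exception without a fall in unstimulated cells, at 92.7 ± 8.57 CPM in shSdc1 and 83.3 ± 6.15 CPM in shRFP. Earlier results of these data already show the lower Chac1, Trib3 and Asns in unstimulated shSdc1 cells, so their direction is no independent support for that of Cebpg.

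By profile over the 12 libraries, other genes came close to each tested member. The measure was the root mean square difference of log2(CPM + 0.5), each gene centred on its own mean, over 12304 or 12305 genes with at least 1 CPM on average. The nearest to Cebpd were Chrnb1 (0.289), Nfkbia (0.308), Plekhf1 (0.329) and Gpat3 (0.337), where the median gene lay at 0.802. Chrnb1 averaged 5.57 CPM in shSdc1 with IFNγ, 1.203 CPM in shRFP with IFNγ, 2.99 CPM in shSdc1 and 1.16 CPM in shRFP. The nearest to Lcn2 were Asap3 (0.318), Thbs1 (0.380), Tgm2 (0.399) and Axl (0.406), with the median gene at 1.12. The nearest to Cebpg were Taf15 (0.0775), Vegfa (0.0846), Gria4 (0.0981) and Arl14ep (0.10), with the median gene at 0.371. Taf15 averaged 197.3 CPM in shSdc1 with IFNγ, 206.1 CPM in shRFP with IFNγ, 243.9 CPM in shSdc1 and 329.4 CPM in shRFP. Profiles of members with few counts carry their counting error, and the points share libraries and depth.

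**Figure D5:**
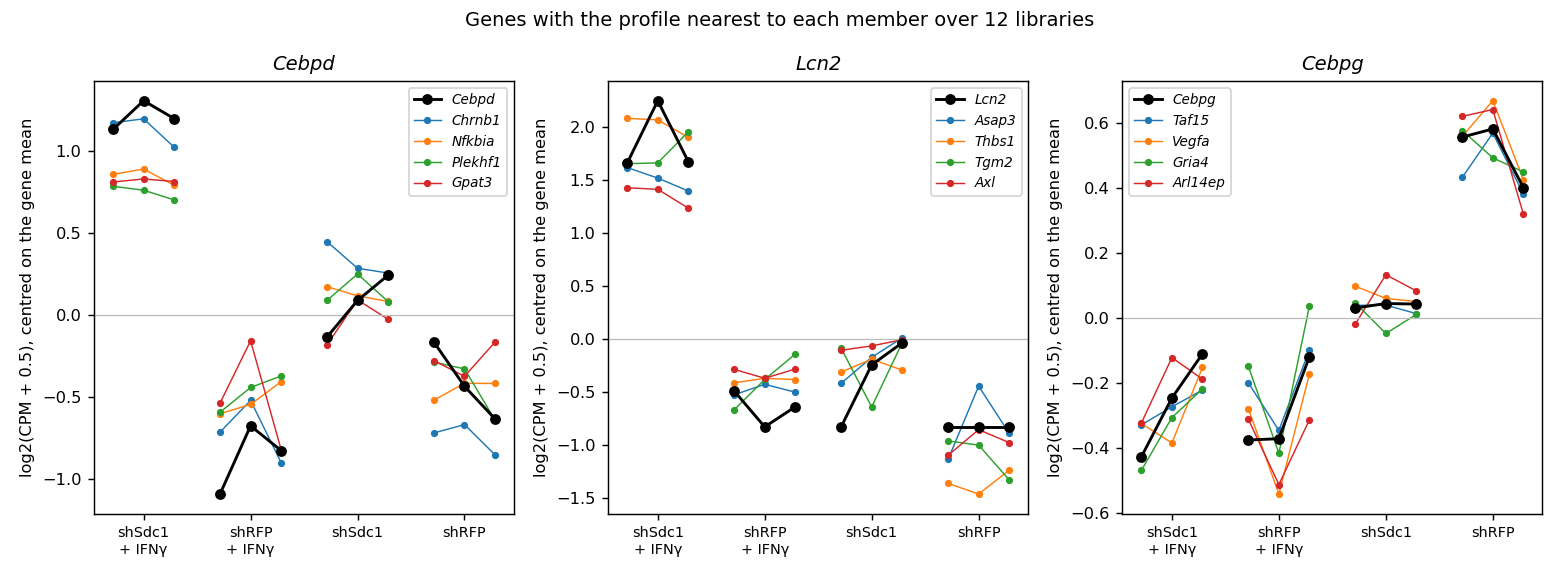
Profiles of Cebpd, Lcn2 and Cebpg (black) and of the 4 genes nearest to each by root mean square difference; the vertical axis is log2(CPM + 0.5) centred on the gene's mean, points are libraries, and lines join the 3 libraries of a group for legibility. The genes nearest to Cebpd differ from it by 0.289 to 0.337 and those nearest to Cebpg by 0.0775 to 0.10.

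Markers of other cells were checked because Lcn2 and Cebpd are also genes of neutrophils and macrophages. Of 10 neutrophil markers 7, among them Ly6g, Mpo and Ltf, were at 0 counts in all 12 libraries and none was tested. Of 12 macrophage and leukocyte markers 2, Cd68 and Lyz2, were tested, while 9 had at most 3 counts in any library, Ptprc, Adgre1, Csf1r and Itgam among them. Their sum ranged from 15.8 to 16.6 CPM in shSdc1 with IFNγ, 5.73 to 8.45 CPM in shRFP with IFNγ, 8.51 to 8.92 CPM in shSdc1 and 2.49 to 3.44 CPM in shRFP. This order is close to that of Cebpd and Lcn2. Most of the sum was Cd68, a lysosomal gene that other cells express too, at 14.4 ± 0.380 CPM in shSdc1 with IFNγ and 6.32 ± 1.56 CPM in shRFP with IFNγ. Lyz2 averaged 1.76 ± 0.227 and 0.740 ± 0.276 CPM in the same 2 groups (log2 1.24 ± 0.32, edgeR adjusted p = 0.00510). Without IFNγ Lyz2 was also higher in shSdc1 (1.44 ± 0.35, edgeR adjusted p = 0.00415), and both differences passed in all 20 alternative settings. Of 6 fibroblast markers 2 were tested, and their sum ranged from 61.3 to 65.2 CPM in shSdc1 with IFNγ, 23.9 to 33.2 CPM in shRFP with IFNγ, 48.3 to 54.0 CPM in shSdc1 and 22.8 to 24.7 CPM in shRFP. Nearly all of that sum was Postn, at 60.6 ± 1.94 CPM in shSdc1 with IFNγ and 24.9 ± 5.29 CPM in shRFP with IFNγ, while Pdgfra was at 2.42 ± 0.549 and 2.39 ± 0.364 CPM in the same 2 groups, Dcn had 0 counts throughout and Lum and Thy1 had 0 counts in shSdc1 with IFNγ. The 7 adipocyte and hepatocyte markers summed to at most 0.243 CPM. The melanocyte markers passed as lower in shSdc1 than in shRFP in 6 of 7 cases with IFNγ, against 17.4% of all genes. Without IFNγ they did so in 7 of 7 cases, against 14.6% of all genes, and in 4 of 7 when shSdc1 replicate 3 was left out. The part of these markers in the results was not tested.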

How the data were processed

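Per the labels' protocols, total RNA was extracted with TRIzol, an mRNA library kit was used and paired-end reads came from an Illumina HiSeq instrument. The authors deposited 1 table of raw counts, with 56093 entries and 12 libraries. Per the submitters' processing notes, the build was GRCm39 and the tools were HISAT2 2.0.5, HTSeq and Trimmomatic, with no settings, annotation or strand mode stated. Symbols, exon lengths and overlaps came from GENCODE M21 (GRCm38), which matched 52083 entries, and where a symbol fell on several entries the one with more counts was used.

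Genes were kept by filterByExpr (minimum count 10, minimum total 15), which left 14089. Counts were scaled by TMM and fitted with 1 coefficient per group over all 12 libraries by edgeR 4.0.16 (quasi-likelihood test, two-sided, R 4.3.3; 8 residual degrees of freedom), with Benjamini-Hochberg adjustment over all genes tested at 0.05. For each log2 fold change the SE is that value divided by the root of the F statistic, and fitted values used a prior count of 0.125. The steps were tested on simulated data. Ratios of few counts carry exact 95% intervals. Where the group compared against had no counts, the ratio is set against 3 counts over that group and carries no interval. Figures and summaries used matplotlib 3.10.9, pandas 2.3.3, scipy 1.17.1 and numpy 2.4.6 in Python 3.11.15. Promoter sequences are credited to RefSeq (GRCm38.p6), which matched 5 of the 6 genes.

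Named genes were the 6 members, up to 4 genes per list and comparison, ranked by absolute change among genes past the threshold that averaged 1 CPM or more in either group, and the 4 nearest profiles per kept member. Cp, C3, C4b, Mt1, Orm3 and Serpina3n were named as the acute-phase genes kept. A few others (Il6, Il1b, Il33, Osm, Slc22a17, Mmp9, Lbp, Mt2, Serpina3g, Psat1, Phgdh, Shmt2, Cebpe, Cebpz, overlapping genes and markers) were named for their place on a list, after their values were seen. The members, the 7 gene lists and the 5 marker lists were chosen with earlier results of these data known. Alternatives were the Wald test of DESeq2 1.42.0, its size factors, upper-quartile scaling, a fit of only the groups compared, the filter replaced by none or by 1 CPM in 3 libraries, a replicate block, each library left out, longest-transcript lengths for the shares, and, added after seeing the data, a fit without the 677 assembled loci and ENSMUSG00000119584.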

Additional observations from a re-analysis of the deposited data

Results flagged for a closer look

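The knockdown effect on Cebpd differed between stimulated and unstimulated cells, by a test of the difference itself. The effect with IFNγ exceeded that without by 1.83 on the log2 scale (SE 0.27, edgeR adjusted p = 0.000433), with 2.36 with IFNγ and 0.52 without. All 3 shSdc1 libraries lay above all 3 shRFP libraries in both settings. Without IFNγ the nearest 2 libraries stood at 3.04 and 2.96 CPM, and that difference passed in 9 of 20 alternative settings. Such separation also occurred without a call, as for Spidr with IFNγ against none in shSdc1 (edgeR adjusted p = 0.132).

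The knockdown effect on Cebpg differed too, by 0.51 (SE 0.11, edgeR adjusted p = 0.00918), with 0.03 with IFNγ and -0.48 without. Without IFNγ all 3 shSdc1 libraries lay below all 3 shRFP libraries, and with IFNγ the groups overlapped. Among all genes 9.73% passed this test.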

How the results depend on the processing

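Among recomputed values for Cebpd, Cebpg and Lcn2, 261 kept their direction and their side of the threshold, 29 no longer passed and 5 changed sign. For named list genes 1831 values did so and 56 no longer passed. The sign changes were in 2 differences that did not pass in any setting. Cebpg in shSdc1 with IFNγ against shRFP with IFNγ became -0.022 or -0.026 without replicate 1 or 2 of shRFP with IFNγ and -0.055 without replicate 3 of shSdc1 with IFNγ, in a range of -0.055 to 0.11 over the libraries left out, and the Lcn2 difference of effects became -0.14 without shSdc1 replicate 1 and -0.16 without replicate 2 of shRFP with IFNγ, in a range of -0.16 to 1.28. For the knockdown without IFNγ, 3 members passed as reported, 1 in a fit of the compared groups alone, where Lcn2 was not tested, and 1 to 3 with a library left out. For IFNγ in shRFP 2 passed as reported, and 1 with the DESeq2 Wald test, no filter, the compared groups alone or the replicate block, and 1 to 2 with a library left out. Over all genes the difference of effects called 1371 genes, and 789 to 1999 with a library left out. The cause of these shifts was not tested, apart from fewer samples or genes in the fit. Upper-quartile scaling turned the split for IFNγ in shRFP to 1759 higher and 2811 lower, against 2422 and 2024 as reported, and in shSdc1 to 2047 and 2495, against 2469 and 1826, without moving any list median across 0. With longest-transcript lengths Cebpd held 23.8% in shSdc1 with IFNγ and 9.77% in shSdc1, and Cebpg 73.9% in shSdc1 with IFNγ, 89.0% in shSdc1 and 93.5% in shRFP.

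Libraries with the same replicate number did not deviate together (correlations of -0.0677 to 0.0276 over 12 pairs), so no shift shared by number was seen. Correlations of this kind cannot tell whether libraries with the same number were prepared together. With the replicate block Cebpd without IFNγ stood at 0.52 (edgeR adjusted p = 0.0676) and Cebpd for IFNγ in shRFP at -0.60 (0.0609), and no other member call changed. Depth limits Cebpa, Cebpb and Saa3, where a group's level is set by 0 to 17 counts.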
